A study of Mus musculus with 11 samples.

Results

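The genes described here encode voltage-gated sodium, potassium and calcium channels. They were picked by mouse symbol from a deposited expression table: Scn followed by digits and a or b, Kcna, Kcnb, Kcnc, Kcnd or Kcnq followed by digits only, and Cacna1a to Cacna1i. This gave 45 genes of the 55487 listed. There were 14 sodium channel genes, 10 for pore-forming alpha subunits and 4 for beta subunits. There were 22 potassium channel genes (8 Kv1, 2 Kv2, 4 Kv3, 3 Kv4 and 5 Kv7) and 9 calcium channel alpha1 genes (3 each of Cav1, Cav2 and Cav3).

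Voltage-gated channels open when the membrane potential changes. Sodium channels carry the rising phase of the action potential, potassium channels end it and set how often a cell fires, and calcium channels turn it into calcium entry, which releases transmitter and signals to the nucleus. In spinal cord the main neuronal sodium channels sit at axon initial segments and nodes of Ranvier, Kv1 channels sit beside the nodes under the myelin, and presynaptic terminals rely on Cav2 channels.

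RNA was sequenced from whole spinal cord and from cultured mouse fetal fibroblasts (MEF) of C57BL/6 mice. The mice were wild-type or carried Morc2a p.S87L in heterozygous form, a serine to leucine change in the chromatin-associated ATPase MORC2A. The libraries were 3 wild-type cord, 3 S87L cord, 3 wild-type MEF and 2 S87L MEF. The labels name no treatment. The sources used here give neither the ages of the mice nor whether replicates were separate animals or cultures, so a p-value here reflects library-to-library spread, which may be technical. Values were FPKM, fragments per kilobase of gene scaled by library size, which is a level per gene length. The depth recovered from the FPKM steps was 12.1 to 23.5 M reads per library. The genotype labels could not be checked, because a base substitution leaves no mark in gene-level FPKM. The tissue labels fitted their markers: the summed FPKM of 8 neuronal genes was 1851 to 1860 in wild-type cord and 32.6 to 34.4 in wild-type MEF, and that of 6 fibroblast and meningeal genes was 18.2 to 19.6 and 3749 to 3770.

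In wild-type cord a few genes carried most of the RNA of each class. Scn1a (Nav1.1) made up 52.4% ± 2.24 (SD, n = 3) of the summed sodium alpha FPKM, Scn8a (Nav1.6, the channel of mature nodes) 31.5% ± 2.21 and Scn2a (Nav1.2) 10.5% ± 0.183. Among beta subunits, Scn4b gave 31.5% ± 0.576. The juxtaparanodal partners Kcna2 and Kcna1 gave 41.9% ± 0.212 and 38.1% ± 0.961 of the Kv1 sum. Kcnd2, an A-type channel, gave 61.1% ± 0.545 of Kv4. Calcium channel RNA was spread more evenly, and no gene of that group passed the wild-type cord mean of 9.54 FPKM of Cacna1a (P/Q-type). The 9 calcium genes together summed to 43.1 ± 0.895 FPKM (SD, n = 3), against 361 ± 12.4 for the sodium and 388 ± 9.01 for the potassium genes.

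Fewer of these genes reached a mean of 0.5 FPKM in fibroblasts than in cord. A gene was called when limma, fitted on log2(FPKM + 0.5) over all genes tested, gave an adjusted p under 0.05 (Benjamini-Hochberg). With 36 members tested between wild-type cord and wild-type MEF, limma called 34 higher in cord and 2 lower, while 87.6% of all 15962 genes tested were called in either direction, 47.4% higher in cord and 40.3% lower. Genes were tested at a mean of at least 0.5 FPKM over both tissues. Members near the floor in MEF, such as Scn4b (0.0049 FPKM in MEF, 87.2 in cord), could pass only by being high in cord. The count of 34 was therefore partly set by the filter. The 2 genes lower in cord were calcium channels: Cacna1c (the L-type channel Cav1.2; log2 difference -0.79 ± 0.048 SE, adjusted p = 1.4e-06) and Cacna1g (the T-type channel Cav3.1; -0.33 ± 0.046, adjusted p = 0.00024). Their wild-type MEF means were 5.29 ± 0.168 and 9.16 ± 0.161 FPKM (SD, n = 3). Cacna1h (Cav3.2) was close to equal, at 2.57 ± 0.204 in cord and 2.16 ± 0.0496 in MEF, and its log2 difference was 0.20 (called, adjusted p = 0.019). It was not called without wild-type MEF replicate 3 (adjusted p = 0.059), and turned to -0.23 (adjusted p = 0.014) with quantile normalization. That scaling moved the median of all genes from 0.12 to -0.15. These 3 genes were chosen after their values were seen. Kcnc4 was listed at 0 in all 5 MEF libraries.

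**Figure D1:**
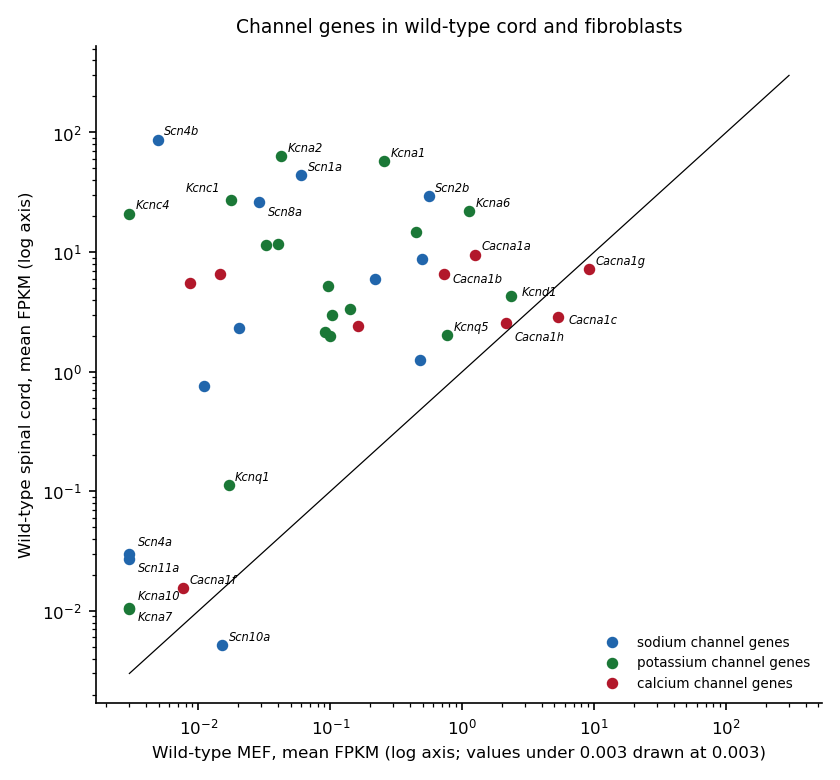
Mean FPKM of 39 of the 45 channel genes in 3 wild-type MEF libraries (horizontal) and 3 wild-type spinal cord libraries (vertical), both on log axes, with values under 0.003 drawn at 0.003 and the line marking equal levels. Most points lie above the line; Cacna1g and Cacna1c lie below it among the genes tested.

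In S87L cord 11 of the 37 members tested were called lower than in wild-type and none higher. Of all 15648 genes tested, 7.71% were called lower and 5.17% higher, 12.9% in either direction. At an unadjusted p under 0.05 the count was 19 members, and these 19 too were all lower in S87L, against 29.1% of all genes in either direction and 17.7% lower. With limma voom on recovered reads 16 members were called lower and none higher, against 10.4% and 8.05% of the 15636 genes that fit tested. The median log2 difference was -0.16 over the members and -0.02 over all genes, and 33 of 37 members were below 0, against 55.3% of all genes. The count of 33 was 29 to 33 across the other settings of scaling, filtering and library choice. The 3 S87L values did not overlap the 3 wild-type values in 22 members, 21 of them lower, against 35.1% of all genes in either direction and 21.3% lower. The remaining 8 members did not pass the filter of a mean of 0.5 FPKM, with no library above 0.258 FPKM, among them Scn4a, Scn10a, Scn11a, Kcna7, Kcna10, Kcnq1 and Cacna1f. The split of all called genes was 809 higher and 1207 lower, and became 1023 and 993 with median ratio scaling and 1910 and 1451 with the GC content and length trend removed. In whole tissue, fewer cells of a type and less RNA per cell cannot be told apart.

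**Figure D2:**
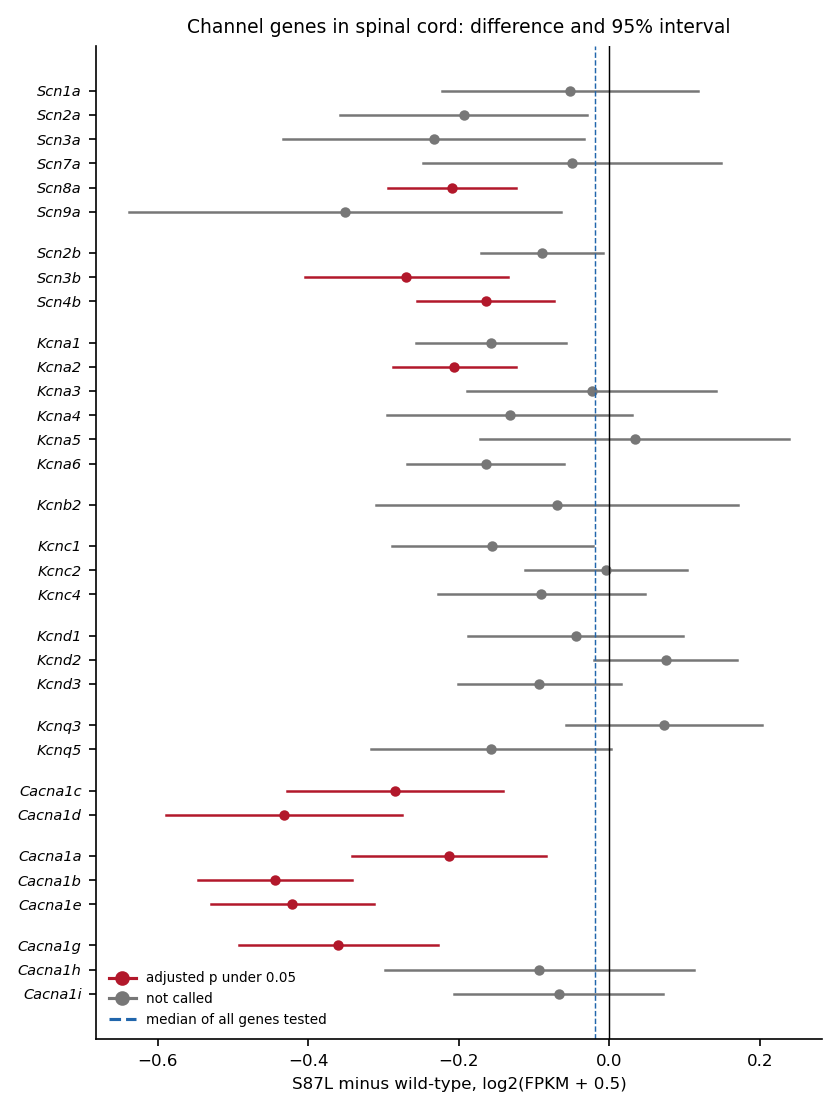
Difference between S87L and wild-type spinal cord (log2(FPKM + 0.5)) for 32 of the 37 channel genes tested, with 95% intervals, grouped by class; red marks an adjusted p under 0.05 and the dashed line the median of all genes tested. The 10 red intervals all lie left of 0, and 6 of them belong to calcium channel genes.

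Other cell types moved with the genotype in the same cord libraries. The shares of all genes called in cord were 7.71% lower and 5.17% higher, and no marker list was tested against them. All 10 skeletal muscle genes tested, of a list of 11, were higher in S87L cord, with a summed FPKM of 16.7 to 21.8 in wild-type against 80.3 to 86.7 in S87L and no gene of the list at 0 in a whole group. All 6 fibroblast and meningeal genes were higher (18.2 to 19.6 against 38.5 to 40.5), as were 4 of 5 smooth muscle and pericyte genes tested (38.1 to 40.9 against 52.7 to 56.1), 3 of 5 microglial genes (69.5 to 70.5 against 81.0 to 83.9) and 3 of 5 red blood cell genes (336 to 371 against 409 to 447). The skeletal muscle channels were near 0 in both groups: Scn4a had 10 recovered reads in the 3 wild-type and 21 in the 3 S87L libraries, and Cacna1s was at 0.0730 to 0.114 against 0.186 to 0.262 FPKM. The general neuronal list gave 2 of 8 genes lower and none higher, with a median log2 difference of -0.03 and a sum of 1851 to 1860 against 1788 to 1831. Of 6 motor neuron genes none was called (2 higher and none lower at an unadjusted p under 0.05), with a median of 0.15. Of 5 inhibitory neuron genes 1 was lower (median -0.02). Of 2 excitatory genes tested the low Slc17a7 was lower, from 1.84 to 2.35 FPKM to 0.318 to 0.452 (-1.50, adjusted p = 0.00046). The far more abundant Slc17a6, at 45.6 to 50.1 against 44.9 to 46.8, was not called (-0.08, adjusted p = 0.28). The summed FPKM of the excitatory list was 48.3 to 52.3 against 45.6 to 47.5. Oligodendrocyte genes gave 1 higher and 1 lower of 6, with a sum of 3066 to 3161 against 2868 to 3030. Schwann cell genes gave 3 higher and 1 lower of 5 tested (149 to 156 against 156 to 161), astrocyte genes 2 higher and 1 lower of 6 (1079 to 1141 against 1088 to 1110), and endothelial genes none higher and 1 lower of 5. Oligodendrocyte precursor genes gave 1 lower of 3 and none higher (22.9 to 24.7 against 21.6 to 22.5). Neither of the 2 dorsal root sensory neuron genes tested was called. The part of these lists in the channel differences was not tested.

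The calls were unevenly spread over the ion groups: 6 of 8 calcium, 3 of 10 sodium and 2 of 19 potassium genes tested. Of all genes tested, 7.71% were called lower and 12.9% in either direction, so the potassium count was near the share of all genes. The median log2 difference was -0.32 over the calcium, -0.18 over the sodium and -0.09 over the potassium genes. No test compared the groups with each other. The summed calcium channel FPKM was 44.1, 42.9 and 42.3 in the wild-type cord libraries and 35.1, 35.9 and 33.5 in the S87L libraries, so the groups did not overlap. The potassium sums did not overlap either, at 396.5, 387.7 and 378.5 against 366.9, 370.2 and 350.3. The sodium sums overlapped, at 375.4, 352.9 and 355.3 against 351.9, 355.6 and 338.7.

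The 300 bases around the RefSeq transcription start (GRCm38.p6) are shown for 2 calcium channel genes with clear falls and for Cacna1i, which was not called, to show that base composition varied among them. All are written 5′ to 3′ on the gene's strand, and capitals mark CG dinucleotides. Cacna1b is chr2:24763103-24763402, minus strand. Cacna1e is chr1:154725871-154726170, minus strand, a start inside the gene's GENCODE span. Cacna1i is chr15:80286988-80287287, plus strand.
Cacna1b: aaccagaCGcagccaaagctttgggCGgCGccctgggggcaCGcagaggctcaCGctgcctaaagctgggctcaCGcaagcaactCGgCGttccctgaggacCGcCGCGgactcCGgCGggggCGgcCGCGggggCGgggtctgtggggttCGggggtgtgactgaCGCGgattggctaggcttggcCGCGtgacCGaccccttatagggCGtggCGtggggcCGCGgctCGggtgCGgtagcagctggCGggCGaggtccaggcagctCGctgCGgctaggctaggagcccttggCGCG
Cacna1e: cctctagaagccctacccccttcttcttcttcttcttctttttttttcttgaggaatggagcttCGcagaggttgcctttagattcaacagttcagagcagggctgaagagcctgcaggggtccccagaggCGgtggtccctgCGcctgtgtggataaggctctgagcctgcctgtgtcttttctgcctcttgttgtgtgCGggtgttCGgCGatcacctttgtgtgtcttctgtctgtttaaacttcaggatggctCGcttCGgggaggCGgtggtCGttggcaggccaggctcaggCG
Cacna1i: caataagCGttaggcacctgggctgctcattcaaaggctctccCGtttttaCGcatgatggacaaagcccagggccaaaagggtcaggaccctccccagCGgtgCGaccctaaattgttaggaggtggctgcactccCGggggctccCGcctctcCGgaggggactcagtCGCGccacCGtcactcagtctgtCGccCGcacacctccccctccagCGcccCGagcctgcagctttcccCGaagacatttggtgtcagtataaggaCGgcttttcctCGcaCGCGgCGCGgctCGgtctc
These windows held 35, 11 and 23 CG dinucleotides, and their GC content was 72.3%, 55.3% and 62.7%. Windows were found for 29 of the 45 members, 38 windows in all. Their median GC content was 55.2%, against 52.7% in all 32851 windows, and their median count of CG dinucleotides was 8.5, against 7. On both strands GGGCGG, a GC box, was found in 31.6% of the members' windows and in 35.7% of all windows. CCAAT was in 26.3% and 37.4%, and TATAAA in 5.3% and 13.6%.

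All 3 Cav2 genes, which encode the presynaptic channels, fell in S87L cord. Cacna1b (N-type, Cav2.2; chromosome 2, 24603887 to 24763152, GRCm38) was at 6.39, 6.61 and 6.51 FPKM in wild-type against 4.67, 4.74 and 4.52 in S87L libraries. The gap between the groups was many times the spread within them, and the log2 difference was -0.44 ± 0.044 (SE; adjusted p = 0.0015). Cacna1e (R-type, Cav2.3; chromosome 1, 154390731 to 154884501) was at 5.38, 5.70 and 5.35 in wild-type against 3.95, 3.95 and 3.98 in S87L. All 3 S87L values lay below every wild-type value, with a log2 difference of -0.42 ± 0.046 (adjusted p = 0.0024). Cacna1a (P/Q-type, Cav2.1) was at 9.83, 9.51 and 9.29 in wild-type against 8.10, 8.73 and 7.69 in S87L. It fell by 0.21 ± 0.055 on the log2 scale (adjusted p = 0.046), without overlap, and the call was lost when any 1 of the 6 libraries was left out (adjusted p up to 0.13). It was also lost without a filter, with median ratio scaling, with library weights and with the replicate block (adjusted p 0.051 to 0.091). Its share of the Cav2 sum was 44.3% ± 1.01 in wild-type against 48.7% ± 1.33 in S87L (SD, n = 3), while that of Cacna1b was 30.2% ± 0.592 and 27.7% ± 0.414.

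The L-type (Cav1) genes that passed the filter also fell. Cacna1d (Cav1.3, which opens at relatively negative potentials; chromosome 14, 30039939 to 30491455) was at 2.30, 2.41 and 2.55 FPKM in wild-type against 1.63, 1.59 and 1.77 in S87L. The groups were well apart, and the log2 difference was -0.43 ± 0.067 (adjusted p = 0.0084). Cacna1c was at 2.92, 2.83 and 2.80 in wild-type against 2.13, 2.21 and 2.41 in S87L, again without overlap. Its log2 difference of -0.28 ± 0.061 (adjusted p = 0.025) became -0.16 and was not called (adjusted p = 0.09) with the GC content and length trend removed, and 9 further alternatives also ended the call, among them leaving out any library other than S87L replicate 3. Cacna1f, known as a retinal channel, was at 0.0243 FPKM or less in every cord library.

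Of the T-type (Cav3) genes, which open near the resting potential, 1 of 3 was called. Cacna1g (chromosome 11, 94408391 to 94474198) was at 7.53, 6.86 and 7.16 FPKM in wild-type against 5.59, 5.71 and 5.17 in S87L. The difference of -0.36 ± 0.056 on the log2 scale (adjusted p = 0.0086) was larger than the spread in either group. Cacna1i (Cav3.3) was at 6.89, 6.53 and 6.22 in wild-type against 6.47, 6.39 and 5.82 in S87L, with overlapping groups and a log2 difference of -0.07 (95% interval -0.21 to 0.07). Cacna1h was at 2.80, 2.48 and 2.42 against 2.52, 2.55 and 2.07, also overlapping, at -0.09 (-0.30 to 0.11). Both were named after their values were seen. Within the Cav3 sum, Cacna1g went from 44.1% ± 1.09 to 39.0% ± 0.601 and Cacna1i from 40.2% ± 0.909 to 44.2% ± 0.494. Of the 11 members called in cord, Cacna1b, Cacna1d, Cacna1e and Cacna1g were called under all 18 alternatives run, at log2 differences between -0.53 and -0.28. The others each lost the call under 2 to 10 of the 18.

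**Figure D3:**
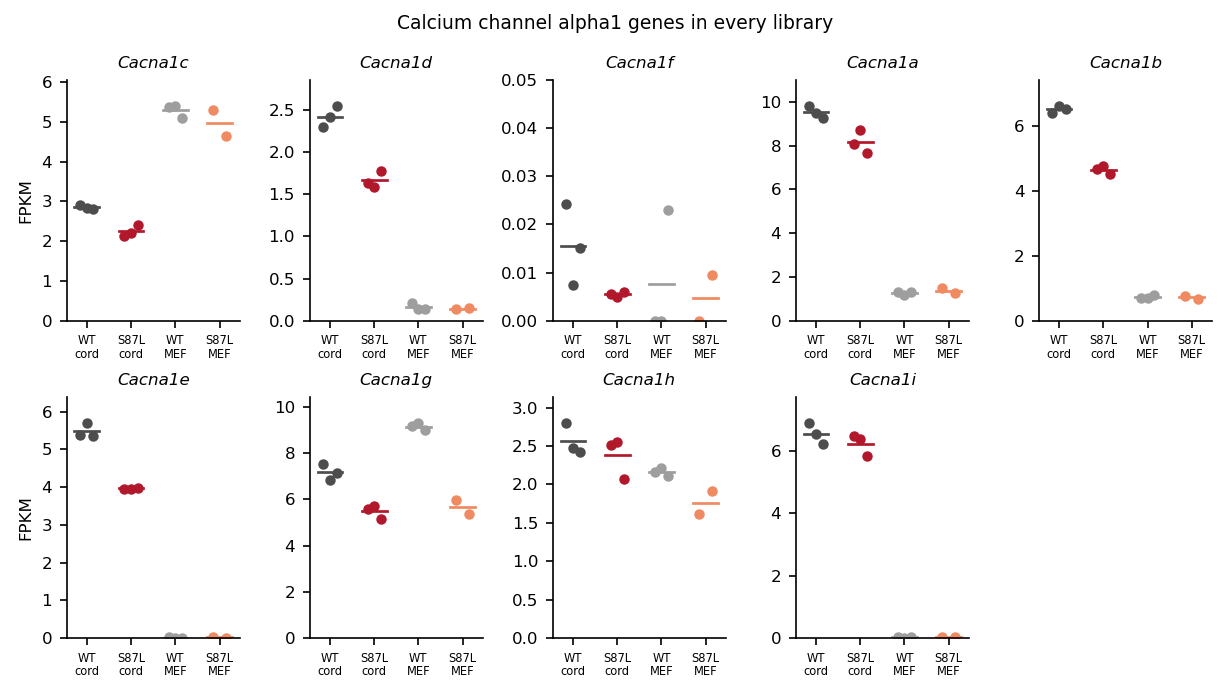
FPKM of the 9 calcium channel alpha1 genes in each of the 11 libraries (points) with group means (lines), on axes that start at 0 and differ between panels. In cord the S87L points of Cacna1b, Cacna1d, Cacna1e and Cacna1g lie below all wild-type points; in MEF only Cacna1g of these 4 shows a wide gap, from about 9.16 to 5.68 FPKM.

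Of the sodium channel genes, 1 alpha and 2 beta genes were called. Among the 3 alpha genes with the highest cord levels, Scn8a was called lower: it was at 26.8, 26.8 and 25.4 FPKM in wild-type against 22.6, 22.6 and 22.9 in S87L. The groups did not overlap, and the log2 difference was -0.21 ± 0.036 (adjusted p = 0.012). It was -0.12 and still called with the GC content and length trend removed, and was not called without S87L replicate 1 (adjusted p = 0.052) or without S87L replicate 2 (adjusted p = 0.060). Scn1a, the most abundant alpha gene, was at 39.2, 47.2 and 45.5 in wild-type against 40.5, 41.9 and 44.5 in S87L. Those values overlapped, and its difference of -0.05 had a 95% interval of -0.22 to 0.12. Scn2a was at 8.44, 9.20 and 8.80 against 7.38, 7.13 and 8.49 and was not called (-0.19, adjusted p = 0.12), though 3 of the 18 alternatives called it lower. Scn3a and the low Scn9a (Nav1.7, known from pain-sensing neurons), both named after their values were seen, had differences of -0.23 (adjusted p = 0.12) and -0.35 (adjusted p = 0.11) with no overlap of groups, and each was called lower under 2 of the 18. Scn9a was at 0.644 to 0.820 FPKM in wild-type against 0.378 to 0.555 in S87L.

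The beta subunits, which modulate gating and help hold the channels at the membrane, gave both other sodium calls. Scn3b was at 5.99, 5.72 and 6.30 FPKM in wild-type against 4.64, 4.88 and 5.17 in S87L. It fell by 0.27 ± 0.058 on the log2 scale (adjusted p = 0.025), with all S87L values below all wild-type values. Scn4b was at 91.5, 83.9 and 86.3 against 78.9, 77.1 and 77.3. That fall was small but without overlap, -0.16 ± 0.039 (adjusted p = 0.035). Leaving out S87L replicate 1 or 2 ended both calls, as did leaving out wild-type replicate 1 or 3; for Scn4b, so did leaving out S87L replicate 3. The adjusted p then reached 0.088 for Scn3b and 0.13 for Scn4b. Testing without a filter also ended both calls (adjusted p = 0.055 and 0.070). Scn2b, named after its values were seen, was at 28.99 to 30.3 against 27.3 to 27.9, without overlap, and was not called (-0.09, adjusted p = 0.14).

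Of the potassium channels called, Kcna2 (Kv1.2; chromosome 3, 107101146 to 107115005) was at 62.7, 65.5 and 63.2 FPKM in wild-type against 54.3, 54.6 and 56.8 in S87L. The groups were apart, with a log2 difference of -0.21 ± 0.035 (adjusted p = 0.011), and the call was lost without S87L replicate 1 (adjusted p = 0.051) or 2 (adjusted p = 0.058). Its assembly partners in the Kv1 class lay just outside the threshold: Kcna1 (Kv1.1), named after its values were seen, was at 55.5, 61.2 and 57.4 against 51.3, 52.9 and 51.8 (-0.16, adjusted p = 0.054), and Kcna6 at 23.2, 21.7 and 21.2 against 20.1, 19.4 and 19.3 (-0.16, adjusted p = 0.054). Neither gene's groups overlapped, and each was called lower under 6 of the 18 alternatives, the replicate block among them (adjusted p = 0.049 for both). Kcna6 shares 39.6% of its exon bases with an antisense gene, Gm26673, on the opposite strand, and the sources used here do not say whether counting used the strand.

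The Kv7 class includes the subunits of the M-channel, a brake on repetitive firing. Kcnq3 (Kv7.3), one of them, named after its values were seen, was at 10.8, 12.0 and 11.3 in wild-type against 11.4, 11.9 and 12.6 in S87L. Those groups overlapped, at 0.07 (95% interval -0.06 to 0.20), and with the GC content and length trend removed Kcnq3 was called higher at 0.12 (adjusted p = 0.044). Its share of the Kv7 sum was 35.8% ± 1.15 in wild-type against 41.0% ± 1.77 in S87L (SD, n = 3). Kcnq5, at 1.95, 2.19 and 1.93 against 1.72, 1.80 and 1.76 FPKM, was at -0.16 (adjusted p = 0.18).

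The remaining potassium classes gave no call in 9 genes tested. Kcnc1, a Kv3 gene, named after its values were seen, was at 28.04, 26.9 and 26.4 against 24.9, 25.7 and 22.4 (-0.16, adjusted p = 0.12). Kcnd2 was the only potassium gene whose S87L values all lay above the wild-type values, at 15.7, 15.2 and 16.1 against 15.005, 14.5 and 15.1, and it was not called (0.08, adjusted p = 0.27). Kcnd1, of the same class, was at 4.56, 3.92 and 4.37 against 4.15, 4.16 and 4.08, overlapping, with a difference of -0.04 that was 0.0028 with quantile normalization.

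**Figure D4:**
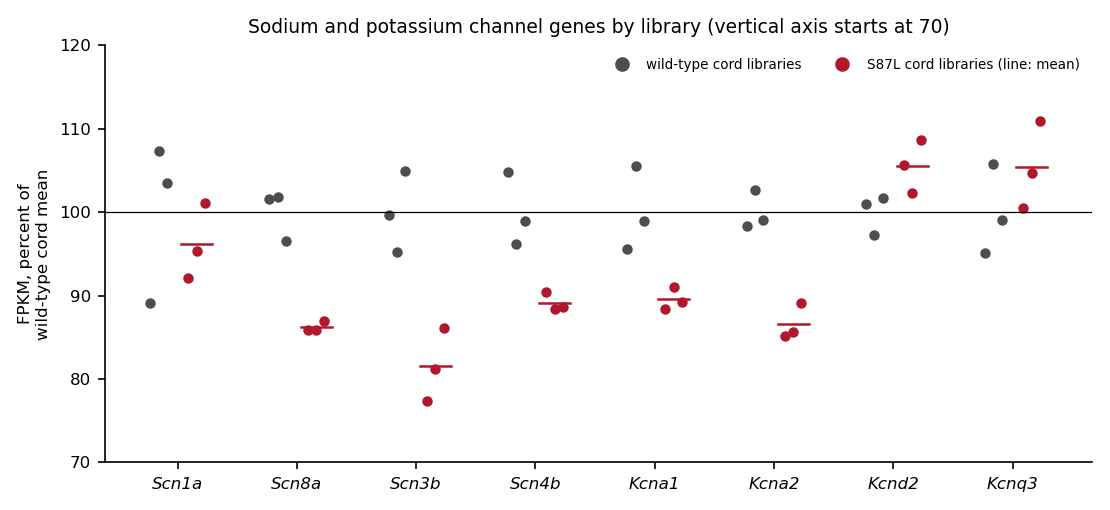
FPKM of 8 sodium and potassium channel genes in each spinal cord library, as a percent of the wild-type cord mean (vertical axis starting at 70); grey points are wild-type, red points S87L, and the red line is the S87L mean. The S87L points of Scn8a, Scn3b, Scn4b, Kcna1 and Kcna2 lie below all wild-type points, those of Scn1a and Kcnq3 overlap them, and those of Kcnd2 lie above.

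The genes with the most exon bases, merged over all annotated transcripts of a gene, tended to have the more negative differences in cord. Over the 37 members tested, the Spearman correlation of the log2 difference with exon length was -0.47, against -0.24 for genomic span, 0.06 for GC content and 0.20 for wild-type cord level. These are descriptions across genes that share the same 6 libraries. Of the 10 members with more than 12000 exon bases 5 were called lower, of the 10 members between 8000 and 12000 bases 4, and of the 17 shorter members 2. All protein-coding genes tested were binned at 2000, 4000, 8000 and 12000 exon bases. From the shortest bin to the longest, 5.76, 6.47, 7.4, 8.81 and 11.1% were called lower. In the same order, 6.85, 7.16, 5.55, 3.93 and 2.26% were called higher. With the GC content and length trend removed in each library, 11 members were called lower and 1 higher, and 10 of the 11 main calls remained.

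**Figure D5:**
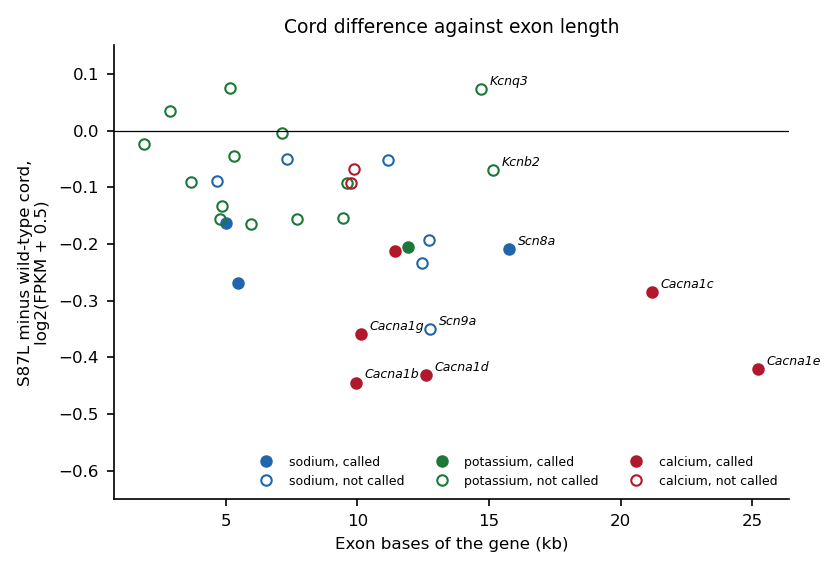
Difference between S87L and wild-type cord (log2(FPKM + 0.5)) against the exon bases of 32 of the 37 channel genes tested, filled where the adjusted p was under 0.05. Cacna1e and Cacna1c are the longest and were called lower, Kcnq3 and Kcnb2 are long without a call, and Cacna1b and Cacna1g, of about 10 kb, have differences as large as the longest genes.

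In MEF 12 members passed the filter. In S87L MEF 1 of them was called higher and another lower, where the background was 4.91% and 6.32% of the 13773 genes tested (11.2% in either direction). Cacna1g fell again, and further: it was at 9.18, 9.31 and 8.99 FPKM in wild-type against 5.98 and 5.39 in S87L. The groups were far apart, with a log2 difference of -0.65 ± 0.059 (SE; adjusted p = 0.0025), and the call was kept under all 17 alternatives run. Cacna1h was at 2.16, 2.21 and 2.11 against 1.62 and 1.91 (-0.24, adjusted p = 0.14), and Kcna6 at 1.29, 1.15 and 0.937 against 0.792 and 0.732 (-0.36, adjusted p = 0.14). Scn7a was at 0.429, 0.560 and 0.436 against 0.721 and 0.617 (0.26, adjusted p = 0.31), and Kcnd2 at 0.512, 0.399 and 0.419 against 0.591 and 0.625 (0.23, adjusted p = 0.36). None of these 4 was called, though no groups overlapped. On recovered reads limma voom called Cacna1h and Kcna6 lower, and with all 11 libraries in one fit Kcna6 was called lower and Kcnd2 higher. Cacna1c, at 5.36, 5.40 and 5.09 against 5.29 and 4.65, overlapped (-0.08, 95% interval -0.25 to 0.09), as did Cacna1b. The groups also overlapped for Cacna1a at 1.296, 1.16 and 1.32 against 1.47 and 1.252, Scn2a at 0.467, 0.547 and 0.481 against 0.552 and 0.521, Kcnd1 at 2.40, 2.16 and 2.53 against 1.88 and 2.60, and Kcnq5 at 0.809, 0.821 and 0.679 against 0.952 and 0.815 FPKM. Over the 12 members 6 had groups that did not overlap, against 45.8% of all genes. The other 33 members had means up to 0.494 FPKM. Of all genes called in MEF, 676 were higher and 871 lower, and 853 and 729 with the GC content and length trend removed. Of the 6 fibroblast genes 3 were lower in S87L MEF (3749 to 3770 against 3235 to 3501) and 2 of 3 neuronal genes tested were higher (32.6 to 34.4 against 38.2 to 42.1). Of the microglial genes 2 of 5 were lower (104 to 105 against 82.9 to 86.9), and of the Schwann cell genes 2 of 3 (73.0 to 78.4 against 57.5 to 59.2). Astrocyte and cardiac muscle lists gave 1 lower each of 2 tested and none higher. The skeletal muscle list gave 1 higher and 1 lower of 2, and the smooth muscle and pericyte list 1 and 1 of 6. Their part in the 2 calls was not tested.

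Whether the genotype difference itself differed between cord and MEF was tested with all 11 libraries. The difference of differences passed for 4 of 36 members, all calcium channels, 3 lower and 1 higher, against 6.14% and 6.98% of 15811 genes (13.1% in either direction). The count of 4 was thus near the share of all genes. Cacna1b fell in cord and stood at 0.685, 0.708 and 0.791 FPKM in wild-type against 0.765 and 0.674 in S87L MEF. Its difference in cord minus that in MEF was -0.43 ± 0.080 (adjusted p = 0.0059), which held under all 20 alternatives run. Cacna1e gave -0.43 ± 0.080 (adjusted p = 0.006) and Cacna1d -0.38 ± 0.109 (adjusted p = 0.043). Their MEF means were 0.0086 and 0.16 FPKM in wild-type, 9 and 86 recovered reads over 3 libraries. Both passed the filter only through their cord levels. At such MEF levels the added 0.5 FPKM keeps any MEF difference small. The values of Cacna1e and Cacna1d therefore largely repeat their cord differences and cannot show that MEF differs. On recovered reads with limma voom the Cacna1e value was -0.97 and not called (adjusted p = 0.24), its call was also lost with the replicate block (adjusted p = 0.063), and 13 of 20 alternatives ended the call of Cacna1d. Cacna1g gave 0.29 ± 0.082 (adjusted p = 0.044), the larger fall being in MEF, and 11 of 20 alternatives ended that call, 8 of them by leaving out a library (adjusted p up to 0.13).

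Genes that work with these channels were read from 4 lists. Of all genes tested in cord, 7.71% were called lower and 5.17% higher. At an unadjusted p under 0.05 (limma) the share in cord was 29.1%, with 17.7% lower. In MEF 6.32% of all genes were called lower and 4.91% higher. The count called in the calcium list in cord was near the share of all genes, and no list was tested against these shares. The calcium list held 17 genes, among them Cacna1s, an alpha1 gene rather than an auxiliary one, which was not tested. Of 13 auxiliary calcium channel genes tested, 1 was lower in S87L cord: Cacng5, a relative of the gamma subunit that also binds AMPA receptors. It was at 3.07, 3.53 and 3.42 FPKM in wild-type against 2.43, 2.59 and 2.79 in S87L (-0.31, adjusted p = 0.034). The list's median was -0.11. At an unadjusted p under 0.05 it gave 4 lower and none higher in cord and none of 6 in MEF. Of 18 auxiliary and silent potassium subunits tested (23 of 24 listed were in the table), 2 were lower and none higher (median -0.09), and at an unadjusted p under 0.05 the counts were 5 lower and 4 higher. The 2 were Kcns1, a silent subunit of Kv2 channels (-0.27, adjusted p = 0.033), and Dpp6, a partner of Kv4 channels (-0.15, adjusted p = 0.028). In MEF Kcne4 fell from 4.82, 4.47 and 4.92 to 3.03 and 2.98 FPKM (-0.58, adjusted p = 0.0042), 1 of 6 tested.

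Among 16 genes for nodal anchors and FGF homologous factors, 3 were lower in cord and none higher (median -0.02). At an unadjusted p under 0.05 the counts were 4 lower and 1 higher, the latter being Dlg4 (0.16, adjusted p = 0.096), named after its values were seen. The 3 called were Cntnap2, which helps gather Kv1 channels beside the node (16.5, 17.6 and 17.4 against 14.1, 13.8 and 15.02 FPKM; -0.25, adjusted p = 0.016), Cntn2 (-0.23, adjusted p = 0.022) and Adam22 (-0.21, adjusted p = 0.037). None of 5 tested in MEF was called, and none had an unadjusted p under 0.05. Of 33 other potassium and cation channels tested in cord, 3 were higher and 2 lower (median -0.07), and 4 and 7 at an unadjusted p under 0.05. Kcnt1, a sodium-activated potassium channel, was at 11.3, 11.4 and 10.6 against 7.47, 7.66 and 7.56 FPKM, with no overlap (-0.52, adjusted p = 0.00078). Kcnk9, a background leak channel, was also lower (-0.18, adjusted p = 0.045). Kcnj10, the inward rectifier of astrocytes and oligodendrocytes, was at 177, 179.6 and 177 against 204, 202 and 204 (0.19, adjusted p = 0.0046). Hcn2, a pacemaker cation channel (0.30, adjusted p = 0.032), and Kcnk1 (0.22, adjusted p = 0.018) were higher too. None of 11 tested in MEF was called, with 1 lower at an unadjusted p under 0.05.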

How the data were processed

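RNA-seq of 11 mouse libraries was read from 1 table of FPKM values that the authors deposited. The submitters' processing notes name HTSeq 0.11.3, HISAT2 2.2.1, Trimmomatic 0.39, Picard 2.25.5 and build GRCm38. The kit was NEBNext Ultra II Directional and RNA came from TRIzol, per the labels' protocols. The sources used here do not give the annotation release, the use of strand or any poly(A) or ribosomal step. Gene identifiers were matched to GENCODE M21 (55227 found, 260 not), which also gave exon lengths.

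FPKM steps gave whole reads for 98.5 to 98.6% of values (within 0.05 of a whole number), hence the depths. Same-group library pairs differed by a chi-square of 1.26 to 4.67 per degree of freedom, so none was a copy. The wild-type MEF pairs gave 1.26 to 1.80, not far above counting error alone. Each comparison was fitted over all genes with limma 3.58.1 (R 4.3.3, trend and robust) on log2(FPKM + 0.5), at a mean of at least 0.5 FPKM, with Benjamini-Hochberg adjustment. A difference on this scale understates that of low genes. Cord and MEF were fitted alone, the difference of differences in all 11 libraries. The fits were also run on simulated data, where only large added changes had to be recovered and few unchanged genes called. That check does not bear on differences as small as those in cord. Replicate numbers in the titles were not treated as pairs.

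Members, lists and tests were chosen with earlier results of these data known. Named were members called in a genotype comparison or highest in their class in wild-type cord or MEF, then those with the smallest p up to 20 per comparison. Some members are not reported here by name or drawn, but they stay in the fits and in every count and sum. Of each gene list, up to 4 called genes were named.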

Additional observations from a re-analysis of the deposited data

Results flagged for a closer look

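Of 36 members tested, 4 calcium channel genes were called in the test of whether the genotype difference differed between cord and MEF. That test used limma on 11 libraries, where 13.1% of all genes were called in either direction, so the count was near the share of all genes. Its value is S87L minus wild-type in cord, minus the same in MEF, on the log2 scale. The value was -0.38 for Cacna1d, -0.43 for Cacna1b and -0.43 for Cacna1e, all of which fell in cord. It was 0.29 for Cacna1g, which fell in both and further in MEF. Cacna1d and Cacna1e had MEF means of 0.16 and 0.0086 FPKM in wild-type and passed the filter only through cord. Their values rest on cord and cannot show that MEF differs. Of 20 alternatives, 13 ended the call of Cacna1d, 11 that of Cacna1g and 2 that of Cacna1e, while Cacna1b was called under all 20.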

How the results depend on the processing

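The filter on mean FPKM left 8 members in cord and 33 in MEF untested. Counting error limits values at low depth, such as those of Cacna1e and Cacna1d in MEF (9 and 86 recovered reads over 3 wild-type libraries). Exon overlap with a gene on the opposite strand touched 10 members, most for Kcna6 (39.6%).

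In cord, 11 members were called; 10 to 16 were called under all alternatives other than testing without a filter (7) and leaving out 1 library (4 to 10). Leaving out S87L replicate 1 or 2 gave 4, and leaving out wild-type replicate 3 gave 7. In MEF the count of 2 was 1 without a filter, with library weights and with the replicate block, 4 with limma voom on recovered reads (chosen after seeing the data) and with all 11 libraries in one fit, and 1 to 2 leaving out 1 library; leaving out an S87L library left 1, assumed to vary like the others. For the difference between tissues the count of 4 was 2 with a pseudocount of 0.1 and without a filter, 1 with the replicate block, and 2 to 5 leaving out 1 library. For wild-type cord against MEF it was 35 to 39 under all alternatives run. The cause of these changes was not tested, other than that more genes or fewer samples entered. The planned edgeR and DESeq2 fits were not run, because FPKM values are not counts.

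Whether the replicate numbers pair the libraries was not settled. Deviations of same-numbered libraries correlated at 0.15, -0.05 and 0.11 in cord, and those of differently numbered libraries at -0.20 to 0.09. In MEF the same-numbered values were -0.07 and -0.03. The deviations of the 2 S87L MEF libraries mirror each other, so the MEF values carry little information. With the replicate block 11 members were called in cord, 9 of them main calls (Cacna1c and Cacna1a lost, Kcna6 and Kcna1 gained), and the genes called in MEF went from 676 higher and 871 lower to 53 and 129.

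Some uncalled values changed sign. Kcnd1 in cord was 0.0028 with quantile normalization, and Scn1a -0.13 to 0.00070 leaving out 1 library. In MEF, Cacna1b was 0.055 with quantile normalization, 0.027 with the block, 0.043 with the trend removed, 0.081 with both, and -0.064 to 0.044 leaving out 1 library. Kcnd1 was 0.0091 with the trend removed, 0.053 with the block too and -0.27 to 0.12 leaving out 1 library, as Cacna1a was -0.0043 to 0.17. Scn2a was -0.021 with the trend removed and -0.035 with the block too, and Cacna1c -0.17 to 0.0023 leaving out 1 library. Cacna1h between tissues, called higher in cord at 0.20, was called lower at -0.23 with quantile normalization.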
